A study of Mus musculus with 4 samples.

Results

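The guanylate-binding proteins (GBPs) and immunity-related GTPases (IRGs) are large GTP-binding proteins that cells make in response to interferon-gamma. Measured here in inflamed mouse colon are 10 genes of this response: the GBP genes Gbp2, Gbp3, Gbp5 and Gbp7, the IRG genes Irgm1, Irgm2, Igtp and Iigp1, the chemokine gene Cxcl9 and the transcription factor gene Irf1. They were taken by name, and all 10 were found among the 22422 genes of the deposited table. RNA of the distal colon was sequenced from female mice aged 6 weeks after 5 days of 2% dextran sulfate sodium (DSS), a polysaccharide that injures the colonic epithelium. The groups were wild type and Elf4fl/fl-Villin-Cre, with 2 libraries each, and both had received DSS. In the latter, called mutant from here on, Cre recombinase made from the villin promoter removes Elf4, flanked by loxP sites, from intestinal epithelial cells, so the other cells of the colon keep it. The strain label reads C57BL/6 for wild type and C57BL/8 for Elf4fl/fl-Villin-Cre, while the series design gives C57BL/6 for both. The labels do not say if each replicate was an animal of its own, if the groups were littermates, or if wild-type mice carried the floxed allele or Cre. The p-values accordingly reflect only how far these libraries spread, and part of that may be technical. Colon without DSS was not analysed here.

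Interferon-gamma is made mainly by T cells, natural killer cells and other innate lymphoid cells. It binds a receptor built of Ifngr1 and Ifngr2 chains, whose kinases are Jak1 and Jak2. The signal acts through gamma-activated sequences (GAS) in promoters and induces Irf1, which in turn binds interferon-stimulated response elements (ISREs). GBPs and IRGs then assemble on the vacuoles of intracellular bacteria and parasites and on cytosolic bacteria, and GBPs also promote inflammasome activation. Within the IRG family, Iigp1 is an effector that coats and disrupts vacuoles, while Irgm1, Irgm2 and Igtp (also called Irgm3) are regulators that sit on host membranes and hold the effectors inactive there.

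Promoter sequences are shown for the members because they carry the letters through which this pathway is known to act. RefSeq promoter windows (GRCm38.p6, the 250 bases before the annotated start) were found for 9 of the 10 members, 11 windows in all. Both strands were searched for TTCNNNGAA, the GAS core, and for an ISRE-like motif, GAAA and GAAA with any 2 bases between them. The motifs can share the letters GAA, but no GAS match overlapped an ISRE-like match in a member's window, and a match is a description of the sequence only. At least 1 of the motifs was present in 8 of the 9 members, against 9.66% of 32851 promoter windows of 27025 genes. Counted by gene, it was also present in 4 of 9 other GTPase genes of the families, 3 of them with both motifs. So it was in 10 of 20 genes induced by type I interferon and 5 of 19 further interferon-gamma targets. Members are counted by gene, with a match in any window of the gene, and the background by window, so the units differ. The GAS core was found in 5 members (7.02% of all windows), the ISRE-like motif in 7 (2.98%), and both in Gbp5, Gbp7, Igtp and Irgm2 (0.332%). No match was found in the Cxcl9 window. The windows of Igtp, Irgm2, Gbp7 and Irf1 follow, 5′ to 3′ on the plus strand, on which all 4 genes lie; GAS and ISRE-like matches are in capitals.
Igtp, chr11:58199306-58199555: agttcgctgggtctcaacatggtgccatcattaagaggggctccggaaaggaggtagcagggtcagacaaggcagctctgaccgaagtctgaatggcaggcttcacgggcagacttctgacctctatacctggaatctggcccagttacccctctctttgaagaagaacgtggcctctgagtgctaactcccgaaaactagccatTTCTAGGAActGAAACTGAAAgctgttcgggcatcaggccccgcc
Irgm2, chr11:58214727-58214976: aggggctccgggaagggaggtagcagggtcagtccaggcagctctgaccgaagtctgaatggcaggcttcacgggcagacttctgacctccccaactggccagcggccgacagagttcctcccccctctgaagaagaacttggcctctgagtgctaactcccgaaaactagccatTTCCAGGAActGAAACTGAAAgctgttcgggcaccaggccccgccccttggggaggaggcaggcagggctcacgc
Gbp7, chr3:142530086-142530335: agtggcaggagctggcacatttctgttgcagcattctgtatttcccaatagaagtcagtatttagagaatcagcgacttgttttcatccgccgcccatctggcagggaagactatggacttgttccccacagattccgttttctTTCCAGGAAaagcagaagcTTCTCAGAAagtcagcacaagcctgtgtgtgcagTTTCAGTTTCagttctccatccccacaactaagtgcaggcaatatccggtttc
Irf1, chr11:53769764-53770013: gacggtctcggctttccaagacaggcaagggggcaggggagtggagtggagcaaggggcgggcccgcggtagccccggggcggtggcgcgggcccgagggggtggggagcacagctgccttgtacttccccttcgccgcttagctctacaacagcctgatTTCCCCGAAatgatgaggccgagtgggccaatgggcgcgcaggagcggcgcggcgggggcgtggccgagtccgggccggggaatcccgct
In the IRG pair, a GAS core stands just before the same ISRE-like letters, GAAACTGAAA. The first base of the GAS core lies 45 bases before the start in Igtp and 75 in Irgm2, and that of the ISRE-like motif 34 and 64 bases before it. The longest stretch that the Igtp and Irgm2 windows have in common is 55 bases. Gbp7 holds 2 GAS cores, 106 and 87 bases before the start, and TTTCAGTTTC, the ISRE-like motif on the other strand, at 53. Gbp5 likewise holds 2 GAS cores, at 245 and 52, and an ISRE-like match at 165. The Irf1 window shown has a single GAS core, TTCCCCGAA, at 90, and no ISRE-like match. Further windows of Irf1 and of Gbp3, before later starts, hold no match. The Gbp2 window and the other Gbp3 window hold ISRE-like matches alone, at 59 for Gbp2 and at 45 and 39 for Gbp3. So does the window of Irgm1, at 30 and 24. The paired matches in Gbp3 and in Irgm1 overlap each other. All 250 bases of the Irgm1 window, and the 61 bases of the Gbp2 window nearest the RefSeq start, which hold its match, lie in exons of these genes in the GENCODE annotation.

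The libraries were of like depth, with 15885028 to 16425954 recovered reads. Elf4 measured 1588 and 1938 normalised reads in wild type against 897 and 758 in mutant colon (log2 fold change -1.09 ± 0.16 SE, limma adjusted p = 0.0139). Epithelial, macrophage and T cell markers were present in every library, none of them at 0. Of 14 epithelial marker genes 12 fell (summed level 427247 and 480545 normalised reads in wild type, 147439 and 201502 in mutant), and of 12 macrophage markers 9 rose. The 16 T and natural killer cell markers had 0 calls by limma (15.5% of all genes), and edgeR called 0 of the 15 it tested (23.4%). At an unadjusted limma p under 0.05 there were 0, against 3687 higher and 3395 lower of 22050 genes. Their log2 fold changes were above 0 for 14 of 16 (56.2% of all genes), with a median of 0.29. In RNA of whole tissue, fewer cells of a type and less RNA per cell cannot be told apart.

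No member passed the test between the genotypes. In limma's test on log2(value + 1), with p-values adjusted over all 22050 genes tested, 0 of 10 passed 0.05, where 15.5% of all genes did (6.86% higher and 8.6% lower). Irf1, with the lower level in the mutant, was the 1 member of 10 at an unadjusted limma p under 0.05. Of all 22050 genes, 3687 were higher and 3395 lower at that threshold. edgeR's quasi-likelihood test on the recovered reads also called 0 of 10, against 23.4% of genes. Its smallest unadjusted p among the members was that of Irf1 (0.0181). Fold changes are given as mutant over wild type throughout. The median log2 fold change was -0.19 over the members and 0.11 over all genes, and 4 of 10 members were above 0 against 56.2% of genes. With scaling to library totals these medians were 0.13 and 0.41. The fold changes ran from -0.89 for Irf1 to 1.05 for Cxcl9. Their 95% intervals were wide, and a missed threshold does not show that the genotypes were alike.

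**Figure D1:**
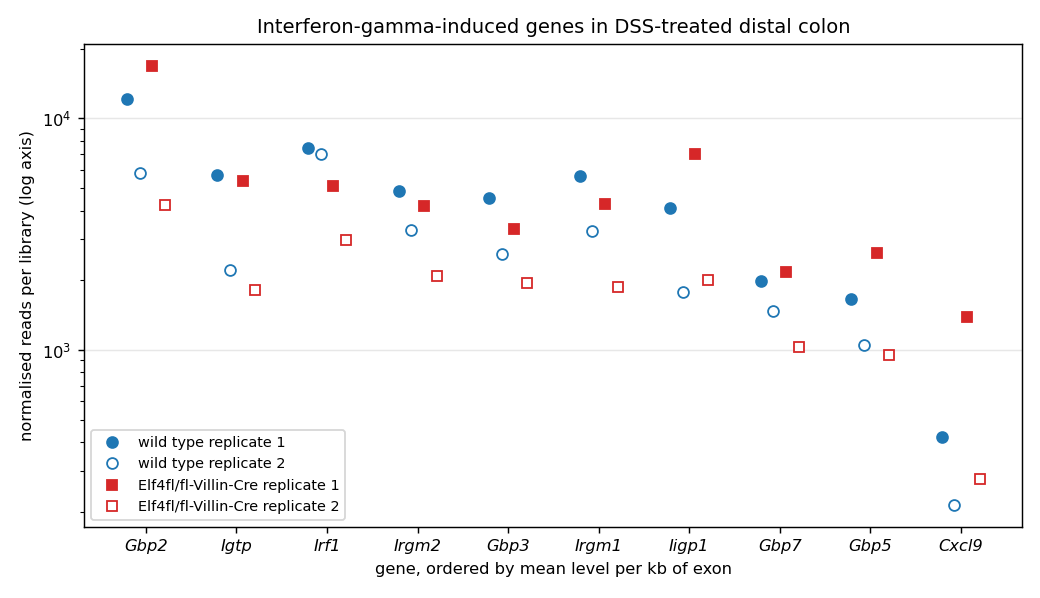
Normalised reads (log axis) of the 10 genes in each of the 4 libraries, 1 point per library; genes are ordered by mean level per kb of exon. Filled points, replicate 1, lie above open points of the same shape, replicate 2, for every gene, and the genotypes separate only for Irf1.

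Gbp2 was the most abundant member per length, at a mean of 3873 normalised reads per kb of exon. It promotes the lysis of vacuoles and the release of bacterial products to the cytosolic caspases. Gbp2 (ENSMUSG00000028270.12, chromosome 3, 142620602 to 142638008, plus strand, mm10) measured 12092 and 5783 normalised reads in wild type against 16864 and 4242 in mutant colon. Both the highest and the lowest library came from the mutant group, so its 2 values enclosed the wild-type ones. The means were 8938 ± 4462 and 10553 ± 8925 (SD, n = 2 each), and the log2 fold change was 0.02 (95% interval -1.60 to 1.64, limma adjusted p = 0.989).

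Gbp5 and Gbp7 had the same order of libraries as Gbp2. Gbp5, which binds bacterial surfaces and promotes NLRP3 inflammasome assembly (ENSMUSG00000105504.4, chromosome 3, 142493978 to 142522344, plus strand), measured 1660 and 1052 normalised reads in wild type against 2616 and 954 in mutant colon. Its log2 fold change was 0.26 (95% interval -0.90 to 1.41, limma adjusted p = 0.749). Gbp7 (ENSMUSG00000040253.15, chromosome 3, 142530342 to 142550149, plus strand) acts in host defence against intracellular pathogens. It measured 1993 and 1466 in wild type against 2170 and 1030 in mutant colon, with a log2 fold change of -0.19 (95% interval -1.06 to 0.67, limma adjusted p = 0.749). For both genes the mutant libraries again lay on either side of the wild-type ones. Across all genes this order, mutant replicate 1, wild-type replicates 1 and 2, mutant replicate 2, was seen for 1.76%.

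Gbp3 was the GBP member with the lowest fold change. The gene (ENSMUSG00000028268.14, chromosome 3, 142560026 to 142573209, plus strand) measured 4549 and 2596 normalised reads in wild type against 3336 and 1947 in mutant colon. Wild-type replicate 1 was the highest and mutant replicate 2 the lowest, the groups overlapped, and the log2 fold change was -0.43 (95% interval -1.27 to 0.41, limma adjusted p = 0.436). The makeup of the GBP family differed between libraries. On the per kb scale, Gbp2 made up 64.5% and 60.3% of the summed level of the 11 GBP genes in wild type against 67.7% and 56.6% in mutant colon. Gbp3 made up 18.7% and 20.8% in wild type, and 10.3% and 20.0% in mutant colon, so its low share was a feature of mutant replicate 1 alone.

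Among the IRG members, the 3 regulators had the same order of libraries: wild-type replicate 1, mutant replicate 1, wild-type replicate 2, mutant replicate 2. Gbp3 had it too, and 1.83% of all genes did. Irgm1, whose loss impairs autophagy and macrophage function (ENSMUSG00000046879.7, chromosome 11, 48861968 to 48871683, minus strand), measured 5651 and 3272 normalised reads in wild type against 4285 and 1866 in mutant colon. The log2 fold change was -0.60 (95% interval -1.66 to 0.45, limma adjusted p = 0.385). Irgm2, a regulator found at the Golgi (ENSMUSG00000069874.7, chromosome 11, 58199618 to 58222782, plus strand), measured 4863 and 3307 in wild type against 4166 and 2078 in mutant colon. The groups overlapped for both genes, and Irgm2 had a log2 fold change of -0.45 (95% interval -1.31 to 0.41, limma adjusted p = 0.430).

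Igtp, a regulator on the endoplasmic reticulum and lipid droplets, was second to Gbp2 in level per length, with a mean of 1872 normalised reads per kb. The gene (ENSMUSG00000078853.8, chromosome 11, 58199556 to 58207591, plus strand) measured 5722 and 2221 normalised reads in wild type against 5377 and 1821 in mutant colon. The replicates of each genotype stood further apart than the genotypes did, and the log2 fold change was -0.19 (95% interval -1.67 to 1.30, limma adjusted p = 0.861). Igtp and Irgm2 share exons on the same strand in the annotation, so the split of reads between them is uncertain.

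Iigp1, the effector IRG, was highest in mutant replicate 1. The gene (ENSMUSG00000054072.11, on chromosome 18) measured 4115 and 1770 normalised reads in wild type against 7022 and 2010 in mutant colon. Wild-type replicate 2 was the lowest, and the groups overlapped because wild-type replicate 1 exceeded mutant replicate 2. The log2 fold change was 0.48 (95% interval -1.08 to 2.03, limma adjusted p = 0.651). Iigp1 made up 7.44% and 6.55% of the per kb level of the 8 IRG genes compared in wild type against 13.9% and 10.4% in mutant colon. Over the same genes Igtp made up 29.8% and 23.7% in wild type against 30.7% and 27.2% in mutant colon. These shares overlapped between genotypes for Igtp and not for Iigp1, nor for Irgm1, Tgtp2 and Gm12250 among the other IRG genes. Those of Iigp1 and Tgtp2 were higher in the mutant, and those of Irgm1 and Gm12250 lower. For levels rather than shares, the groups did not overlap for 62.2% of all genes. The shares were not tested.

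Cxcl9, which draws Cxcr3-bearing T cells, was the least abundant member per length (191 normalised reads per kb) and had the largest fold change of the 10. The gene (ENSMUSG00000029417.9, chromosome 5, 92321347 to 92328079, minus strand) measured 419 and 214 normalised reads in wild type against 1390 and 276 in mutant colon. A single library, mutant replicate 1, was high, and the other value of that group lay between the wild-type ones. The log2 fold change was 1.05 (95% interval -0.75 to 2.84, limma adjusted p = 0.379), and without that library it was -0.12. Cxcl9 and Iigp1 had the same order of libraries, which 3.7% of all genes had.

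Irf1 was the single member whose groups did not overlap, 1 of 10 against 62.2% of all genes (27.2% lower and 35.0% higher in the mutant). It encodes a factor that interferon-gamma induces early and that binds ISREs. The gene (ENSMUSG00000018899.16, chromosome 11, 53770014 to 53778374, plus strand) measured 7483 and 7029 normalised reads in wild type against 5114 and 2986 in mutant colon. That is 7256 ± 321 on average against 4050 ± 1505 (SD, n = 2 each), with a log2 fold change of -0.89 (95% interval -1.53 to -0.26). Irf1 was not called by limma (adjusted p = 0.0706) or edgeR (adjusted p = 0.0661), while DESeq2, which called 24.2% of genes, called it lower (adjusted p = 0.00631). With library totals the value was -0.58. A gene on the other strand, Gm17334, overlaps an Irf1 exon and measured 18.4 to 47.2 normalised reads in the 4 libraries.

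**Figure D2:**
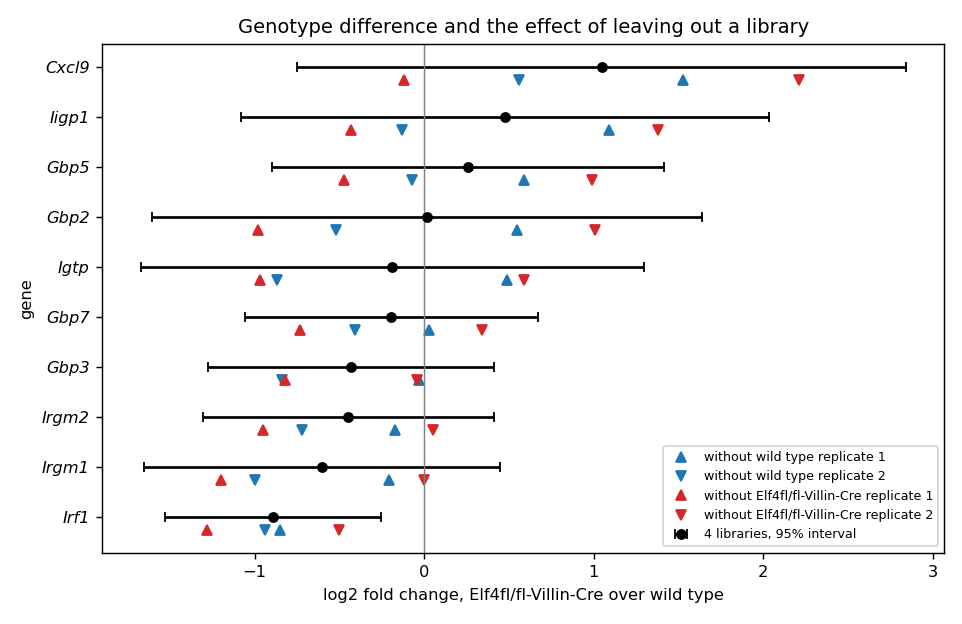
Log2 fold change (Elf4fl/fl-Villin-Cre over wild type) of each of the 10 genes from limma: black points use the 4 libraries, with 95% intervals, and triangles leave out 1 library. Without Elf4fl/fl-Villin-Cre replicate 1 (red, pointing up) Gbp2 falls to -0.98 and without replicate 2 (red, pointing down) it reaches 1.01; Irf1 stays below 0 in the 5 fits.

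The direction of most members rested on which libraries were used. Without mutant replicate 1 limma gave 0 of 10 above 0 (median -0.88), and without mutant replicate 2 it gave 7 of 10 (median 0.47). Without wild-type replicate 1 it gave 6 of 10 (median 0.26), and without wild-type replicate 2 it gave 1 of 10 (median -0.62). Without mutant replicate 1, edgeR called 3 members lower, Irgm1, Irgm2 and Irf1, where 11.9% of genes were called. Without mutant replicate 2, it called 3 members higher, Gbp5, Iigp1 and Cxcl9, where 20.8% were called. Without wild-type replicate 1 or 2 edgeR called 0 of the 10, and Irf1 had the smallest adjusted p, 0.164 and 0.166, where 14.9% and 7.01% of genes were called. In those fits the lone library of a group is taken to vary like the other group. The shares of genes called in them count both directions.

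Replicates of the same genotype differed widely in these genes. For all 10 members replicate 1 was above replicate 2 in wild type and in mutant colon, a pattern that 25.5% of all genes had. The median log2 difference, replicate 1 over replicate 2, was 0.80 in wild type and reached 1.33 in mutant colon, where the values over all genes were 0.01 and -0.03 over all genes. Among the GTPases, Igtp differed most in wild type (2.58-fold) and Gbp2 most in mutant colon (3.98-fold). Cxcl9 differed 1.96-fold in wild type against 5.04-fold in mutant colon. Irf1 differed least, 1.06-fold in wild type against 1.71-fold in mutant colon, the latter also the value of Gbp3. Mutant replicate 2 was the lowest of the 4 libraries for 8 of 10 members (13.5% of all genes), and mutant replicate 1 the highest for 5 (30.4%). The numbers name libraries, and nothing in the labels ties replicate 1 of a genotype to replicate 1 of the other.

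Replicate 1 was above replicate 2 in both genotypes for 14 of 16 T and natural killer cell markers, 5 of 5 B and plasma cell markers and 5 of 6 endothelial markers. The summed level of the T and natural killer cell markers was 2308 and 1282 normalised reads in wild type against 2437 and 1546 in mutant colon. None of the 16 was at 0 in any library. Their lowest library was most often wild-type replicate 2 (13 of 16, against 2 of 10 members) and mutant replicate 2 for 2 of 16 (8 of 10 members), and the median of their log2 differences, replicate 1 over replicate 2, was 0.67 (wild type) and 0.61 (mutant). The epithelial markers had the pattern in 0 of 14, with summed levels that were lower in replicate 1 of each genotype, the macrophage markers in 7 of 12 and the neutrophil markers in 3 of 7. The part of these cells in the difference between replicates was not tested.

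**Figure D3:**
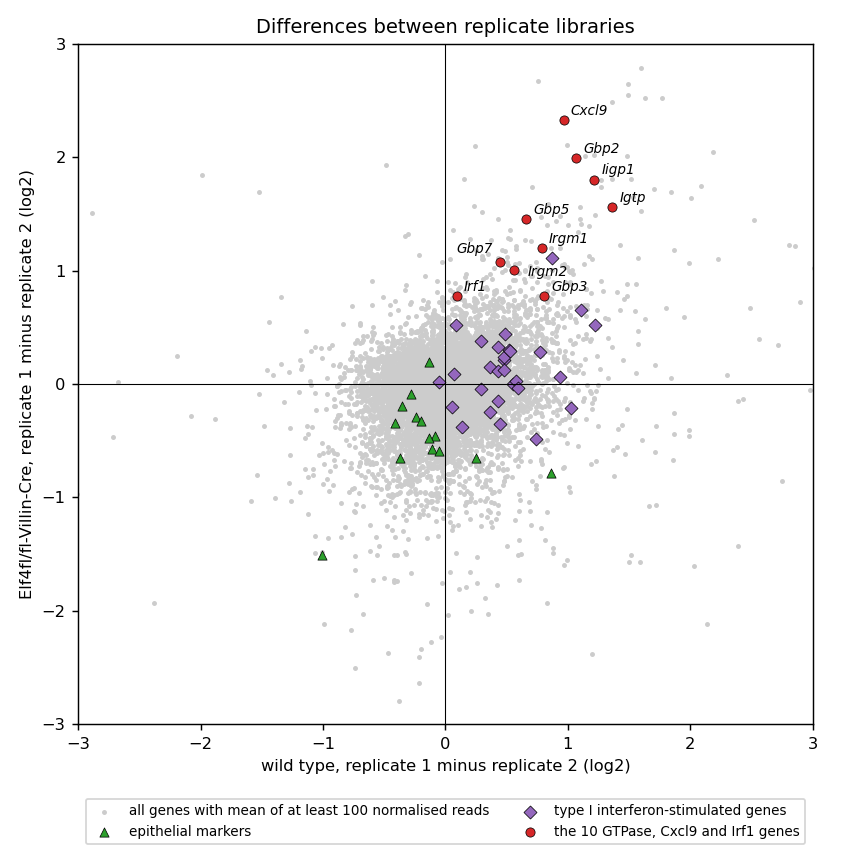
Log2 difference between replicate 1 and replicate 2 in wild type (horizontal) and in Elf4fl/fl-Villin-Cre colon (vertical), 1 point per gene with a mean of at least 100 normalised reads; 33 of 11785 genes lie outside the axes. The 10 genes (red) are all in the upper right part, while the epithelial markers (green) lie mostly below and left of 0.

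Ifng itself was near the limit of detection. It had 4 and 2 reads in wild type against 30 and 1 in mutant colon, with 95% exact Poisson intervals of 1.09 to 10.2, 0.242 to 7.23, 20.2 to 42.8 and 0.0253 to 5.57 reads that cover counting error only. Its high library, mutant replicate 1, was also the one in which Gbp2, Gbp5, Gbp7, Iigp1 and Cxcl9 were highest, as were 30.4% of all genes. The other 5 members, Gbp3, Irgm1, Irgm2, Igtp and Irf1, were highest in wild-type replicate 1, where Ifng had 4 reads. A link between Ifng and the members was not tested. The log2 fold change of Ifng was 0.78 (limma adjusted p = 0.708). It was -1.12 without mutant replicate 1 and 2.67 without mutant replicate 2, and in the latter case edgeR called it higher (2.89, adjusted p = 0.0366).

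Of the receptor and signalling genes, 3 of 8 passed limma's test, 1 lower and 2 higher, where 15.5% of all genes passed. Ifngr2, the signalling chain of the receptor, fell from 2964 and 3473 normalised reads in wild type to 1589 and 2077 in mutant colon (log2 fold change -0.82 ± 0.18 SE, limma adjusted p = 0.0315). Ifngr1, the ligand-binding chain, measured 5928 and 7578 against 4315 and 4575 (-0.59, limma adjusted p = 0.0664), without overlap, and DESeq2 called it lower (adjusted p = 0.00643). Of all genes, 62.2% were without overlap (27.2% lower in the mutant), and DESeq2 called 24.2%. Epithelial markers, of which 12 of 14 fell, moved the same way as both chains, and their part in it was not tested. The kinases did not pass: Jak1 had a log2 fold change of 0.01 and Jak2 of -0.34 (limma adjusted p = 0.979 and 0.134). Ifngr2 did not pass edgeR's test once wild-type replicate 2 was left out (adjusted p = 0.0909) or once mutant replicate 1 was (adjusted p = 0.0858), and it missed limma's with library totals (-0.50, adjusted p = 0.0676) or quantile scaling (-0.53, adjusted p = 0.119).

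Of 3 inhibitors of the pathway, 2 rose. Socs3, which restrains gp130 receptors, rose from 2509 and 2079 to 4505 and 3327 normalised reads (log2 fold change 0.76 ± 0.19 SE, limma adjusted p = 0.0489). Ptpn2, a phosphatase that acts on Jak1, rose from 465 and 498 to 882 and 779 (0.78 ± 0.14 SE, limma adjusted p = 0.0196). Socs1, the main feedback inhibitor of interferon-gamma signalling, measured 416 and 180 in wild type against 323 and 150.5 in mutant colon (-0.31, limma adjusted p = 0.707), with replicate 1 high in both genotypes. In edgeR's fits with 1 library left out, both rises held only without mutant replicate 2 (adjusted p = 0.0133 for Socs3 and 0.016 for Ptpn2). Socs3 also missed limma's threshold with a pseudocount of 0.5, no filter, TMM or quantile scaling (adjusted p = 0.0516, 0.0533, 0.0565 and 0.0517). Macrophage markers rose as well, with summed levels of 11041 and 8318 normalised reads in wild type against 17080 and 15215 in mutant colon. So did 6 of 7 neutrophil markers (median log2 fold change 3.26) and 4 of 5 erythroid markers (median 2.66). The other neutrophil marker had a log2 fold change of -0.40, with both mutant libraries below both wild-type ones. Summed neutrophil markers measured 13684 and 14040 normalised reads in wild type against 15005 and 16479 in mutant colon. The part of macrophages, neutrophils and erythroid cells in the rises of Socs3 and Ptpn2 was not tested.

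The other GTPase genes of the families, 21 in all, included 2 that rose and 1 that fell, a share near the 15.5% of all genes called. Gbp2b, the close relative of Gbp2, rose from 77.2 and 55.8 to 308 and 135 normalised reads (log2 fold change 1.62 ± 0.41 SE, limma adjusted p = 0.0489), and 9930111J21Rik2 from 99.8 and 66.4 to 226 and 191 (1.34 ± 0.26 SE, limma adjusted p = 0.0240). Gm5431 fell from 1226 and 1199 to 538 and 431 (-1.33 ± 0.15 SE, limma adjusted p = 0.00965). Reads of related genes such as Gbp2 with Gbp2b, Tgtp1 with Tgtp2 and the pair 9930111J21Rik1 and 9930111J21Rik2 could be shared out or discarded in counting. Values of these single genes may therefore be uncertain, and how alike their sequences are was not measured. The median log2 fold change of the 21 was 0.32, and replicate 1 was above replicate 2 in both genotypes for 19 of them. Without mutant replicate 1 limma gave a median of -0.49, and without wild-type replicate 2 of -0.15. Gm5431 kept its edgeR call in each fit without 1 library, 9930111J21Rik2 lost it without wild-type replicate 2 (adjusted p = 0.0793), and Gbp2b kept it only without mutant replicate 2. Gbp2b also missed limma's threshold with a pseudocount of 0.5, no filter, TMM or quantile scaling (adjusted p = 0.0520, 0.0547, 0.0541 and 0.111), and 9930111J21Rik2 with quantile scaling (adjusted p = 0.0510).

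The GBP genes lie in 2 clusters. On chromosome 3 (142493978 to 142638008) the 5 GBP genes had log2 fold changes from -0.43 to 1.62 with a median of 0.02. On chromosome 5 (105014150 to 105346472) the 6 GBP genes, Gbp4, Gbp6, Gbp8, Gbp9, Gbp10 and Gbp11, were all above 0, from 0.52 to 1.40 with a median of 0.62, and none passed limma's test. For these 6 the high library was again mutant replicate 1, as for Gbp4 with 1496 and 584 normalised reads in wild type against 3394 and 605 in mutant colon. Without that library limma gave 1 of the 6 above 0, with a median of -0.40, and without mutant replicate 2 edgeR called all 6 higher, where 20.8% of genes were called. The 20.8% counts both directions. With the 4 libraries, 56.2% of all genes were above 0. The spans of Gbp4, Gbp8 and Gbp9 overlap on the minus strand, so the split of reads between them may be uncertain. The difference between the clusters was not tested.

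Of 30 further interferon-gamma targets, 0 rose and 3 fell by limma (6.86% and 8.6% of all genes). At an unadjusted limma p under 0.05, 1 was higher and 6 were lower, against 3687 and 3395 of 22050 genes. edgeR called the same 3 lower and Serpina3g, a protease inhibitor gene, higher. Casp1, the inflammasome protease, fell from 2197 and 2723 to 1033 and 976 normalised reads (log2 fold change -1.28 ± 0.15 SE, limma adjusted p = 0.00970). Psmb10, an immunoproteasome subunit, fell from 4846 and 3590 to 2490 and 1937 (-0.92 ± 0.20 SE, limma adjusted p = 0.0332). Irf9, a factor of type I interferon signalling, fell from 2492 and 2363 to 1516 and 1760 (-0.57 ± 0.14 SE, limma adjusted p = 0.0423). The median of the 30 was -0.25, and for 27 of them replicate 1 was above replicate 2 in both genotypes. That median was 0.04 without wild-type replicate 1 and 0.07 without mutant replicate 2. Epithelial markers, of which 12 of 14 fell, moved the same way as these 3 genes, and their part in it was not tested. Casp1 kept its edgeR call in each fit without 1 library, while Psmb10 lost it without wild-type replicate 1 (adjusted p = 0.0776) or mutant replicate 2 (adjusted p = 0.0515), and Irf9 kept it only without the latter. By limma, Psmb10 and Irf9 did not pass with library totals (-0.61 and -0.25, adjusted p = 0.0858 and 0.190) or quantile scaling (-0.61 and -0.31, adjusted p = 0.164 and 0.190).

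Among the 6 measured inducers of interferon-gamma, Il18, a cytokine that drives its release from lymphocytes, fell from 1532 and 2039 to 166 and 426 normalised reads (log2 fold change -2.73 ± 0.42 SE, limma adjusted p = 0.0150). The other 5, Il12a, Il12b, Il27, Il15 and Ebi3, did not pass. Of these 5, 3 had both mutant libraries above both wild-type ones, against 35.0% of all genes. At an unadjusted limma p under 0.05, 3 of the 5 were higher, against 3687 of 22050 genes. Epithelial markers, of which 12 of 14 fell, moved the same way as Il18, and their part in its fall was not tested. Il18 missed edgeR's threshold when wild-type replicate 2 was left out (adjusted p = 0.0518). Of 11 genes that load GTPases onto vacuoles, such as the ubiquitin-like Gabarap family, Gabarapl1 rose from 1105 and 1103 to 1571 and 1556 (0.50, limma adjusted p = 0.0416) and lost its edgeR call without any 1 of the 4 libraries. Over the 77 other pathway genes, Ifng included, 5 rose (6.86% of all genes did) and 6 fell (8.6%), a share near that of all genes.

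Genes induced by type I interferon mostly fell. Of 29 such genes 19 fell and 0 rose by limma (background 15.5%), with a median log2 fold change of -1.03. Oas1a, an RNA sensor, fell by 1.66 on the log2 scale and Cmpk2, a mitochondrial nucleotide kinase, by 1.53 (limma adjusted p = 0.00942 and 0.00973). Parp12 fell by 1.24 and Ifih1, the RNA sensor MDA5, by 1.10 (limma adjusted p = 0.00942 and 0.00965). The mutant libraries were both below both wild-type libraries for 25 of the 29, and for 1 of 10 members, against 27.2% of all genes. With 1 library left out edgeR called 14 to 22 of the 29 lower and 0 higher. Epithelial markers fell beside them (median log2 fold change -1.39, 12 of 14 called), and their part in it was not tested. Replicate 1 was above replicate 2 in both genotypes for 18 of 29, with median log2 differences of 0.48 in wild type against 0.12 in mutant colon. The difference between this list and the members was not tested.

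**Figure D4:**
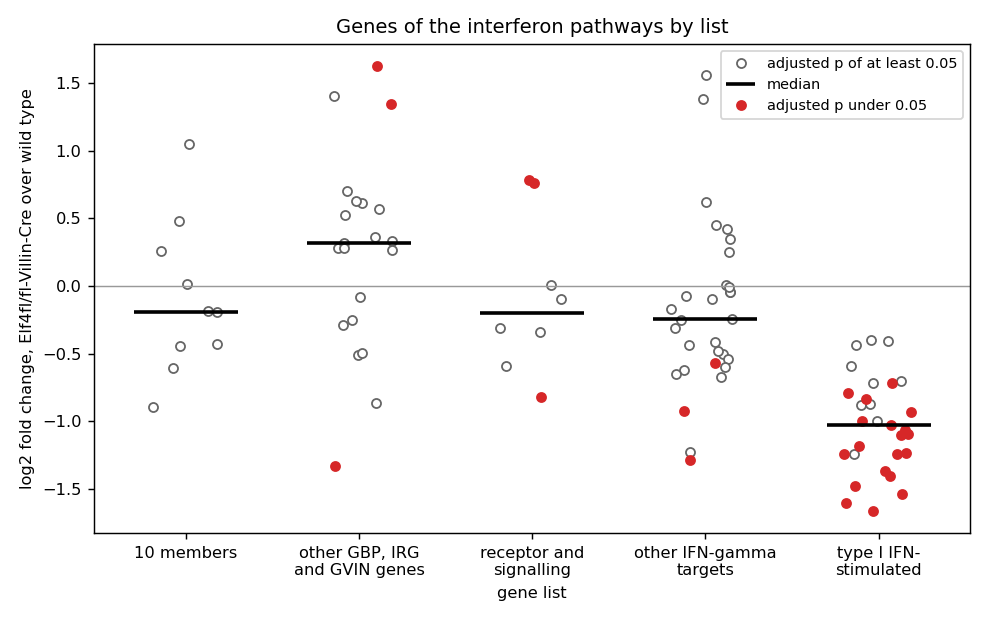
Log2 fold change (Elf4fl/fl-Villin-Cre over wild type) of each gene in 5 lists, with the median as a bar; red points passed limma's adjusted p of 0.05. No member is red, and the type I interferon-stimulated genes all lie below 0.

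Among the 6 genes whose levels over the 4 libraries were most like the median profile of the members, of 11248 candidates outside the lists, were Samhd1, Pla2g16, H2-Q7, Ly6i and Btnl2. Likeness was the Euclidean distance between log2 profiles, each centred on its own mean. It was 0.118 for Samhd1, which measured 6277 and 3263 normalised reads in wild type against 5906 and 2574 in mutant colon, and up to 0.326 for Btnl2. The median over the candidates was 1.20. Samhd1 breaks down the nucleotides that viruses need, and H2-Q7 is a non-classical MHC class I gene. The members themselves lay between 0.300 for Gbp7 and 1.42 for Cxcl9, and 8756 candidates lay within that largest distance.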

How the data were processed

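The members and gene lists were chosen with earlier results of these data known. The deposited table holds a normalised signal made by the authors, 1 value per gene and library without gene length. Each value was a whole multiple of a step in its library (1.03 and 1.05 for the wild-type libraries, 0.814 and 0.836 for the mutant ones), and dividing by it gave whole reads for 100.0% of values (tolerance 0.01). Reads were mapped to mm10, per the submitters' processing notes; aligner, counter, annotation, strandedness and scaling tool: not given in the sources used here. RNA was extracted with Trizol, per the labels' protocols. Positions and exon lengths came from GENCODE mouse release 21. Symbols came from a list of gene names by identifier, or from GENCODE where that list had none. In all, 22376 of 22422 identifiers (99.8%) had a symbol.

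The test was limma (3.58.1, R 4.3.3) on log2(value + 1), which understates the change of low genes, with a variance trend, genotype only, genes with a mean of at least 1, and Benjamini-Hochberg adjustment at 0.05. It called 3409 of 22050 genes, 1512 higher and 1897 lower. edgeR (4.0.16, TMM, filterByExpr) on recovered reads called 4054 of 17337, and DESeq2 (1.42.0) was a further alternative. The scripts were tested on simulated data. Groups and replicate numbers came from genotype and title labels. Named were all members, Ifng and its signalling genes, up to 4 genes per other list past the threshold by smallest p, and the 6 genes of nearest profile; Gbp4 and Serpina3g were added after their values were seen. Some genes that this rule takes are not reported here. Alternatives were other pseudocounts, filters and scalings, a replicate block, the count tools, and each library left out; edgeR with the block and with libraries left out was added after seeing the data.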

Additional observations from a re-analysis of the deposited data

How the results depend on the processing

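With 2 libraries a group no single value can reach an exact permutation p below 0.333, and the limma calls borrow spread across genes. limma without any 1 library has 1 residual degree of freedom and called 0 of all genes, so its 0 for the members and pathway genes says nothing about stability. Pseudocounts, filters and TMM kept the member count at 0. The library-totals scaling moved the median log2 fold change of all genes from 0.11 to 0.41 and that of the members from -0.19 to 0.13, which relative to all genes is -0.30 and -0.28.

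All genes called numbered 3409, and 5308 with library totals (4114 higher, 1194 lower), 1986 with quantile scaling (984 higher, 1002 lower), 5433 by edgeR with the replicate block, and 0 to 3754 with 1 library left out; edgeR alone gave 1285 without wild-type replicate 2 and 2142 without mutant replicate 1. Members called were 0, and 1 by DESeq2 (Irf1) and 0 to 3 with 1 library left out. Pathway genes called were 11, and 5 with quantile scaling, 19 by DESeq2, and 0 to 22 with 1 library left out. The replicate block pairs libraries by a number alone: deviations of same-numbered libraries correlated at 0.104 over 22050 genes and 0.316 over 11785 genes with a mean of at least 100. With it limma called 2 members (Irgm1 and Irf1, lower; adjusted p = 0.0312 and 0.0178; 20.5% of all genes) and 26 pathway genes, and edgeR 4 members (Gbp3, Irgm1 and Irf1 lower, Cxcl9 higher; 31.3% of all genes) and 33 pathway genes.

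Signs turned for Gbp2 with TMM (-0.01) and by edgeR with the replicate block (-0.01), Gbp7 with library totals (0.12) and quantile scaling (0.02), Igtp (0.13 and 0.10) and Socs1 with library totals (0.01). Jak1 turned with TMM (-0.02), edgeR (-0.02), DESeq2 (-0.05) and edgeR with the replicate block (-0.02). With 1 library left out, log2 fold changes ran from -1.12 to 1.01 for Gbp2, -0.55 to 0.99 for Gbp5, -0.79 to 0.34 for Gbp7, -1.02 to 0.05 for Irgm2, -1.17 to 0.66 for Igtp, -0.59 to 1.38 for Iigp1 and -0.24 to 2.21 for Cxcl9. They ran from -1.12 to 2.89 for Ifng, -0.12 to 0.09 for Jak1 and -1.03 to 0.36 for Socs1, and stayed at or below 0 for Gbp3 (-0.92 to -0.02), Irgm1 (-1.30 to -0.00) and Irf1 (-1.33 to -0.50). The cause was not tested. The median difference between replicates kept within 0.786 to 0.843 in wild type and 1.32 to 1.44 in mutant colon.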
